A study of Arabidopsis thaliana with 20 samples.

Results

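The comparison set leaves harvested 16 h after the lights came on, which is 8 h into the night, against leaves harvested at 4 h, the middle of the light period. It used 8 of the 20 arrays of a study of the model plant Arabidopsis thaliana, chosen by genotype and harvest time in the sample titles. The groups were Atss3 at 16 h, wild type (WT) at 16 h, Atss3 at 4 h and WT at 4 h, with 2 arrays each, so 4 arrays at 16 h stood against 4 at 4 h. Atss3 is a mutant of starch synthase 3, an enzyme that builds starch in the chloroplast, and the labels give no allele. All plants had 8 h of light and 16 h of darkness a day. Each array measured the pooled rosette leaves 5 to 8 of 16 plants that were 6 weeks old, so the spread between plants was not seen. The whole experiment was done in 2 runs, and replicates 1 and 2 are these runs. At 16 h the plants differed from those at 4 h both in the absence of light and in the time of day, and these cannot be told apart here.

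Leaves make starch by day and break it down by night, when photosynthesis stops and starch is the main source of sugar. A circadian clock, a set of genes that repress each other in turn, times many transcripts so that they peak at set hours, and light adds to this through photoreceptors. When sugar runs low, a kinase called SnRK1 turns on genes for the breakdown of proteins, lipids and amino acids, while sugar and light favour genes of photosynthesis and growth.

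The values were MAS5 signals, 1 per probe set, on a linear scale that the authors had set to a common mean on every array. A signal cannot be set against that of another gene, since probe sets bind their targets unequally. The probe sets kept were those above their array's 40th percentile on at least 2 of the 8 arrays, which left 14646 of 22746, and 7997 of them name 1 gene. Most genes of the lists below had no probe set that names them alone here, so each list is described by those that did. The signal of SS3 itself was not analysed here because no probe set with that name was found, and so it gives no check of the mutant label. The mesophyll markers RCA, LHCB4.1 and LHCB4.2 had mean signals of 6671 or more in both groups, and all 3 were called lower at 16 h, with log2 differences of -0.44, -0.60 and -1.73. Other cell types were seen through few genes. The guard cell marker FMA averaged 182 ± 34.3 at 16 h and 140.0 ± 10.1 at 4 h (limma log2 difference 0.37, adjusted p = 0.0914). Without WT 16 h replicate 1 the log2 difference of FMA was 0.20. The root marker PYK10, an ER body beta-glucosidase, averaged 471 ± 173 at 16 h and 168 ± 19.7 at 4 h, and the vasculature marker SWEET11 6666 ± 1069 at 16 h and 3329 ± 232 at 4 h (SD, n = 4 each). PYK10 rose by 1.42 and SWEET11 by 0.99 on the log2 scale, and the part of these markers in other results was not tested. Markers of epidermis and flower had no named probe set. In whole leaves, fewer cells of a type and less RNA per cell cannot be told apart. The log2 ratio of 3' to 5' GAPDH control signals, a measure of RNA integrity, was 0.228 ± 0.155 at 16 h and 0.271 ± 0.335 at 4 h (SD, n = 4 each; exact permutation test, 2-sided, p = 0.857, smallest possible p = 0.0286). The log2 ratio of actin was 2.82 ± 0.513 at 16 h and 2.75 ± 0.191 at 4 h (SD, n = 4 each). That of ubiquitin was 1.42 ± 0.201 at 16 h and 1.49 ± 0.264 at 4 h. Both lay above the GAPDH ratio in both groups, so GAPDH alone does not show that the RNA was intact. In the same exact permutation test the ubiquitin ratio gave p = 0.714, and adjusted over GAPDH, actin and ubiquitin p was 0.857 for each.

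Leaf transcripts differed widely between 16 h and 4 h. At an unadjusted p under 0.05 stood 7303 of the 14646 probe sets (49.9%), and 5947 (40.6%) were called. Of all probe sets 3029 (20.7%) were called higher at 16 h and 2918 (19.9%) lower, by limma with genotype and run as covariates at an adjusted p (Benjamini-Hochberg) under 0.05. At least 2-fold changes were called for 905 probe sets (6.18%) that rose and 845 (5.77%) that fell. A change of at least 4-fold was called for 197 rises and 167 falls, and of at least 8-fold for 52 rises and 67 falls. The median log2 difference of all probe sets was -0.00302. The arrays of the groups did not overlap for 2692 probe sets that were higher at 16 h (18.4%) and 2596 that were lower (17.7%). In a principal component analysis of the 8 arrays the leading component held 67.4% of the variance, and time accounted for 98.3% of it. The next component held 10.5%, of which the run accounted for 92.3%. In what follows the transporters named TMT, the methionine sulfoxide reductases, serine carboxypeptidases, ubiquitin-conjugating enzymes, trichome birefringence-like genes, RNA polymerase subunits, glutamate receptor-like channels, aldehyde dehydrogenases, organelle RNA processing genes and defensin-like genes were chosen as families after their values were seen. Of the 143 genes followed by name 138 were called, against 40.6% of all probe sets. Most of the 143 were picked because they were called or after their values were seen, so this count was largely set by the choice. Of the 138 genes 127 were called whichever of the 8 arrays was left out, a count that the same choice bears on.

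**Figure D1:**
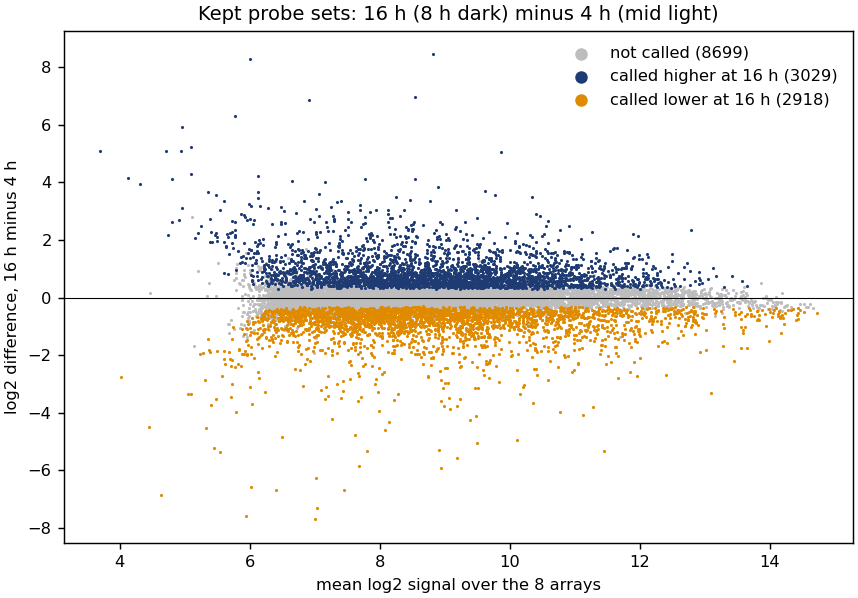
Log2 difference, 16 h minus 4 h, of each kept probe set (y axis) against its mean log2 signal over the 8 arrays (x axis). Probe sets called higher (3029), called lower (2918) and not called are coloured apart. Calls run in both directions over most of the range of signals, while among the 100 brightest probe sets 1 was called higher and 45 lower. The widest differences sit among dim to middling probe sets.

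Genes of the circadian clock and its outputs held wide differences in both directions. Of 36 genes listed 6 had a probe set that names them, and of these 2 were called higher, 3 lower and 1 (TIC) was not called, against 20.7% and 19.9% of all probe sets. The median of the list was -0.14, lay between -0.25 and -0.05 when 1 array was left out, and was -0.40 in run 1 and 0.12 in run 2, so it has no settled sign. COR27, a cold- and clock-regulated gene whose product acts in light and clock signalling, had signals of 1033 and 1286 in Atss3 and 1244 and 1715 in WT at 16 h, against 2.64 and 7.3 in Atss3 and 26.3 and 30.7 in WT at 4 h. Every 16 h array was far above every 4 h array, where the gene was dim, meaning below the 40th percentile of the array. With dim signals raised to that percentile COR27 was at least 13.6-fold higher at 16 h (limma adjusted p = 3.7e-05). Here and below, folds given as "at least" come from raised signals and their p from the signals as deposited. AT4G33980, in the same list, had signals of 442 and 581 in Atss3 and 353 and 609.9 in WT at 16 h, against 3.43 and 9.35 in Atss3 and 2.95 and 15.0 in WT at 4 h. It was likewise dim on all 4 h arrays, and it was at least 5.09-fold higher at 16 h (limma adjusted p = 8.41e-06).

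GI, which encodes GIGANTEA, a clock protein that peaks late in the day and promotes flowering, went the other way. Its signals were 73.9 and 66.4 in Atss3 and 36.4 and 11.4 in WT at 16 h, against 1195 and 815 in Atss3 and 1091 and 1020.3 in WT at 4 h. All 16 h arrays were dim and all 4 h arrays lay well above them, so GI was at least 10.9-fold lower at 16 h (limma adjusted p = 0.000112). AT1G69570 fell by 1.57 on the log2 scale with all 16 h arrays dim, at least 1.63-fold (limma adjusted p = 0.000118). AT5G52660 averaged 335 ± 64.5 at 16 h and 478 ± 48.2 at 4 h (SD, n = 4 each; limma log2 difference -0.53, adjusted p = 0.0346). Without any of the replicate 1 arrays it was not called (highest adjusted p = 0.104). TIC, which encodes a regulator of the clock, averaged 1189 ± 119 at 16 h and 1004 ± 161 at 4 h (limma log2 difference 0.25, adjusted p = 0.191).

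Among probe sets that name 1 gene and were dim on none of the 8 arrays, the widest called rise without overlap was that of AT3G15630. This gene is a member of the carbon starvation list. Its signals were 3661 and 4004 in Atss3 and 2057 and 2771 in WT at 16 h, against 141 and 334 in Atss3 and 218 and 417 in WT at 4 h. No array of the groups overlapped, and the rise was 11.8-fold (limma, a log2 difference of 3.56 ± 0.27 (SE), adjusted p = 6.41e-05). AT3G59350 had signals of 1132 and 1570.5 in Atss3 and 1387 and 1560.3 in WT at 16 h, against 139 and 122 in Atss3 and 123 and 169.8 in WT at 4 h. Its replicates lay close together, and it rose 10.2-fold (limma, a log2 difference of 3.35 ± 0.14 (SE), adjusted p = 5.28e-06). RR16, a response regulator of the type that damps cytokinin signalling, had signals of 1279 and 2161 in Atss3 and 1108 and 2446 in WT at 16 h, against 108 and 250.1 in Atss3 and 186 and 326 in WT at 4 h. The run 2 arrays were higher than the run 1 arrays in both groups, and RR16 rose 8.23-fold (limma, a log2 difference of 3.04 ± 0.16 (SE), adjusted p = 1.56e-05). The other 7 of the 10 widest such rises, from 6.27-fold for AT5G11070 to 4.93-fold for AT2G16630, were genes that the annotation used here names by locus alone. They include AT2G38240, whose signals spread widely in the night, at 454 and 2692 in Atss3 and 1799 and 939.9 in WT at 16 h, against 128 and 185 in Atss3 and 236 and 267 in WT at 4 h.

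Dim at 4 h and high at 16 h were also EXO, EXPA16, AT3G50900 and AT1G49200. EXO, which encodes EXORDIUM, a cell wall protein of brassinosteroid-promoted growth, had signals of 1192 and 654 in Atss3 and 1136 and 762 in WT at 16 h, against 55.0 and 58.5 in Atss3 and 74.2 and 32.4 in WT at 4 h. The groups were far apart, and the rise was at least 9.51-fold (limma adjusted p = 1.04e-05). EXPA16, an expansin, had signals of 593 and 662 in Atss3 and 503 and 791 in WT at 16 h, against 41.7 and 99.8 in Atss3 and 59.4 and 88.1 in WT at 4 h. It rose at least 6.59-fold (limma adjusted p = 1.64e-05), and AT3G50900 and AT1G49200 rose at least 5.66-fold and 5.34-fold.

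Among genes dim on none of the 8 arrays, the widest called falls without overlap were those of AT1G73480 and AT5G35970. AT1G73480 had signals of 120.4 and 299 in Atss3 and 140.4 and 169 in WT at 16 h, against 2299 and 2861 in Atss3 and 3769.8 and 3055 in WT at 4 h. The lowest 4 h array was far above the highest 16 h array, a fall of 17.2-fold (limma, a log2 difference of -4.11 ± 0.26 (SE), adjusted p = 2.71e-05). In replicate 1 of Atss3 and of WT the 16 h signal of AT1G73480 was below the array's median (161 and 162), so this fold rests on low signals. AT5G35970 had signals of 398 and 473 in Atss3 and 474 and 441 in WT at 16 h, against 8116 and 5039 in Atss3 and 7958 and 6974 in WT at 4 h. It fell 15.5-fold (limma, a log2 difference of -3.95 ± 0.16 (SE), adjusted p = 4.7e-06). MSRB6, a methionine sulfoxide reductase, an enzyme that repairs oxidized methionine, had signals of 609 and 230.3 in Atss3 and 587 and 203 in WT at 16 h, against 4517 and 1904 in Atss3 and 5648 and 3510.0 in WT at 4 h. Run 1 was above run 2 in both groups, and within each run the 16 h arrays were far below the 4 h arrays, a fall of 10.1-fold (limma, a log2 difference of -3.33 ± 0.20 (SE), adjusted p = 2.25e-05). The other 7 of these 10 falls ran from 14.7-fold for AT5G59130 to 7.28-fold for AT5G02180, and all are named by locus alone. One of them, AT5G42250, read 94.7 in Atss3 16 h replicate 1, just above that array's 40th percentile of 91.5.

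AT1G13650 and AT2G15020 stood beside GI among genes that were bright at 4 h and dim on every 16 h array. AT1G13650 had signals of 30.8 and 29.8 in Atss3 and 11.2 and 8.49 in WT at 16 h, against 2824 and 1308 in Atss3 and 2049 and 1306 in WT at 4 h. It was at least 19.0-fold lower at 16 h (limma adjusted p = 8.12e-06). AT2G15020 was at least 12.2-fold lower, AT1G76240 10.7-fold and AT4G13800 8.38-fold, each with dim signals raised.

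**Figure D2:**
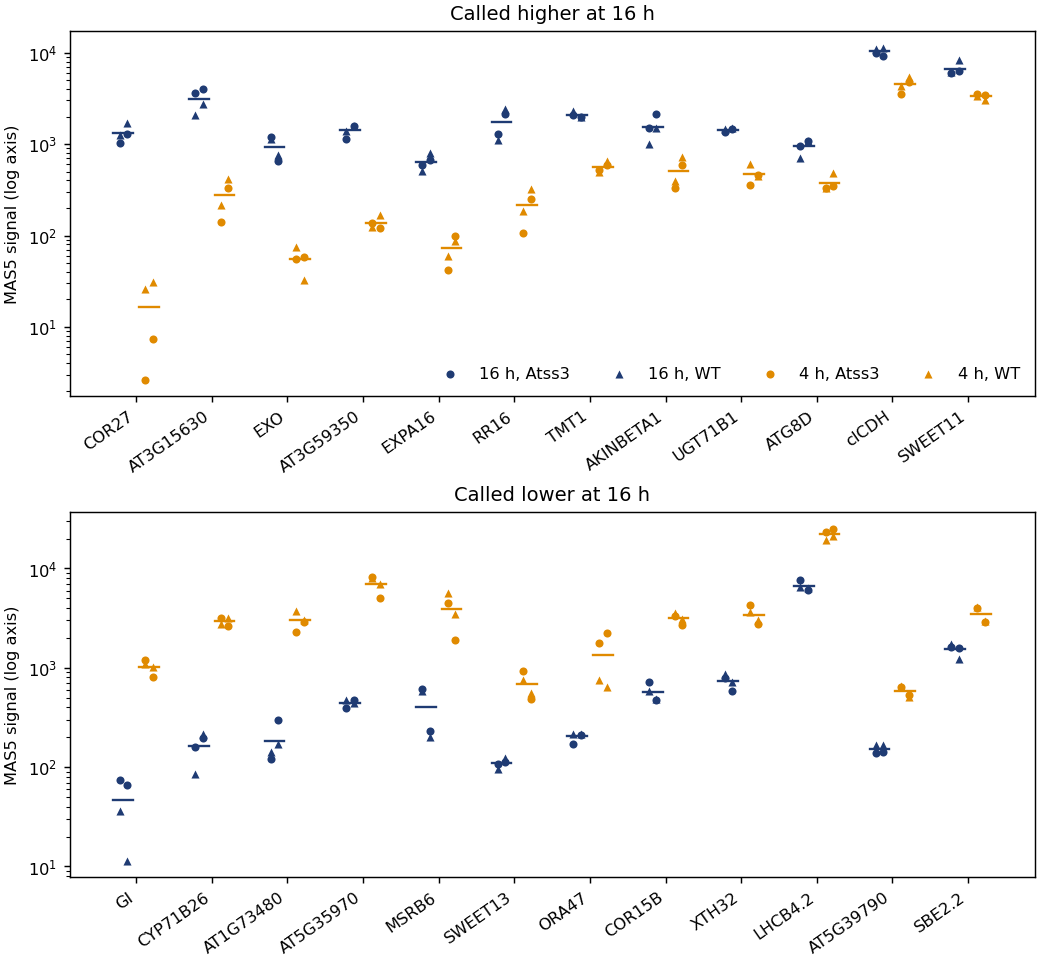
MAS5 signals (log axis) of 12 genes called higher (upper panel) and 12 called lower (lower panel) at 16 h, one point per array, with 16 h left of 4 h, circles for Atss3, triangles for WT and a bar at the mean of 4 arrays. The 16 h and 4 h points of each gene do not overlap. The gap runs from less than the spread within a group in AKINBETA1 to far beyond it in AT3G59350 and AT5G35970.

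The measured genes of starch synthesis fell at 16 h. All 3 kept members of the starch synthesis list, of 18 genes listed, were called lower, with a median log2 difference of -1.22, against 19.9% of all probe sets called lower. AT5G39790 had signals of 138 and 142 in Atss3 and 166 and 166 in WT at 16 h, against 643 and 534 in Atss3 and 661 and 513 in WT at 4 h. The groups did not overlap, and the fall was 3.83-fold (limma, a log2 difference of -1.94 ± 0.12 (SE), adjusted p = 2.96e-05). SBE2.2, a starch branching enzyme, had signals of 1609 and 1596 in Atss3 and 1756 and 1237 in WT at 16 h, against 3987 and 2870.4 in Atss3 and 4113 and 2992 in WT at 4 h. It fell 2.24-fold (limma, a log2 difference of -1.16 ± 0.13 (SE), adjusted p = 0.000312). APL3 belongs to the enzyme that makes ADP-glucose, the sugar donor of starch, as one of its large subunits. It had signals of 356 and 399 in Atss3 and 328 and 387 in WT at 16 h, against 1005 and 1065 in Atss3 and 724 and 693 in WT at 4 h. It fell 2.34-fold (limma, a log2 difference of -1.22 ± 0.13 (SE), adjusted p = 0.000337), and its 4 h signals were higher in Atss3 than in WT.

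Starch breakdown did not move one way. PWD, phosphoglucan water dikinase, which phosphorylates starch ahead of its hydrolysis, averaged 2332 ± 542 at 16 h and 1362 ± 309.6 at 4 h and rose 1.71-fold (limma, a log2 difference of 0.78 ± 0.15 (SE), adjusted p = 0.0044). DPE1, the plastid disproportionating enzyme that reworks short glucans, averaged 619.5 ± 51.7 at 16 h and 1079.6 ± 119 at 4 h and fell 1.74-fold (limma, a log2 difference of -0.80 ± 0.13 (SE), adjusted p = 0.00204; SD, n = 4 each). AMY1, an alpha-amylase, averaged 183 ± 83.5 at 16 h and 126 ± 20.8 at 4 h (limma log2 difference 0.41, adjusted p = 0.377). DPE1 averaged 115 at 1 h, 1463 at 8.5 h and 899 at 12 h, so its level was past its peak by 16 h.

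Genes that mark carbon starvation and SnRK1 signalling were higher at 16 h or not called. Of 7 measured members, of 30 listed, 4 were called higher and 0 lower (20.7% and 19.9% of all probe sets), with a median of 0.79. That median was 1.39 in Atss3 and 0.32 in WT, ran from 0.41 (without Atss3 16 h replicate 1) to 0.98 when 1 array was left out, and 2 of the 4 rises were called in all 8 such fits. AT3G15630, described above, led the list. Its mean was 116 at 1 h, 277 at 4 h, 3954 at 8.5 h, 1532 at 12 h and 3123 at 16 h, so it was highest just after lights off. AKINBETA1, a regulatory subunit of the SnRK1 kinase, had signals of 1519 and 2144 in Atss3 and 1012 and 1483 in WT at 16 h, against 335 and 595 in Atss3 and 396 and 730.1 in WT at 4 h. The groups did not overlap, and it rose 3.03-fold (limma, a log2 difference of 1.60 ± 0.19 (SE), adjusted p = 0.000439). MCCA, a subunit of methylcrotonyl-CoA carboxylase, which acts in leucine breakdown, averaged 419.7 ± 121 at 16 h and 222 ± 49.4 at 4 h (SD, n = 4 each; limma log2 difference 0.90, adjusted p = 0.0195). Without any one of the 4 Atss3 arrays MCCA was not called (highest adjusted p = 0.0664). BZIP53, a transcription factor, averaged 1244 ± 196 at 16 h and 958 ± 266 at 4 h (limma log2 difference 0.41, adjusted p = 0.0405). Its call was lost without any array but Atss3 16 h replicate 2 and Atss3 4 h replicate 2 (highest adjusted p = 0.131), and with quantile normalization its adjusted p was 0.0673. AT3G15450, MCCB and IVD were not called, with log2 differences of 0.79, 0.19 and -0.18 and limma adjusted p of 0.0871, 0.311 and 0.278. The log2 difference of MCCA was 1.49 in Atss3 and 0.32 in WT, and the difference between them was not called (limma, unadjusted p = 0.00379, adjusted p = 0.958).

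ATG8 genes encode the small proteins that coat the autophagosome, the vesicle that carries cell contents to the vacuole for breakdown. Of 9 measured members 5 were called higher and 0 lower (20.7% and 19.9% of all probe sets), with a median of 0.46. ATG8D had signals of 962 and 1080.1 in Atss3 and 699 and 1070.1 in WT at 16 h, against 331 and 352 in Atss3 and 331 and 477 in WT at 4 h. It rose 2.55-fold (limma, a log2 difference of 1.35 ± 0.15 (SE), adjusted p = 0.000359). ATG8H averaged 379 ± 65.8 at 16 h and 157 ± 48.9 at 4 h and rose 2.47-fold (limma adjusted p = 0.00199). ATG8E had signals of 1433 and 1629.7 in Atss3 and 722 and 1373 in WT at 16 h, against 418 and 474 in Atss3 and 477 and 866 in WT at 4 h. Its groups overlapped, since WT 16 h replicate 1 lay below WT 4 h replicate 2, and the rise was 2.31-fold (limma, a log2 difference of 1.21 ± 0.26 (SE), adjusted p = 0.00739). APG8A and APG8H rose by 0.55 and 0.46 on the log2 scale (limma adjusted p = 0.0136 and 0.0273). The call of APG8H was lost without Atss3 16 h replicate 1, Atss3 4 h replicate 1, Atss3 4 h replicate 2, WT 4 h replicate 1 or WT 16 h replicate 2 (highest adjusted p = 0.0903). ATG8B, ATG8C, ATG8F and ATG8G were not called, with log2 differences of 0.01 to 0.38.

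Sugar transporters moved in both directions. SWEET proteins let sugars cross membranes. The SWEET list, drawn up by symbol, kept 10 of 15 genes, among them SWEETIE, which is not a SWEET transporter and was not called (log2 difference -0.31). Of these 10 genes 4 were called higher and 4 lower (20.7% and 19.9% of all probe sets). Their median was -0.05, and it ran from -0.23 to 0.03 when 1 array was left out, above 0 without Atss3 16 h replicate 1 or WT 16 h replicate 2. SWEET13, which exports sucrose to the phloem, had signals of 109 and 113 in Atss3 and 96.0 and 123 in WT at 16 h, against 932 and 483 in Atss3 and 745 and 564 in WT at 4 h. It fell 6.0-fold (limma, a log2 difference of -2.59 ± 0.20 (SE), adjusted p = 6.8e-05). SWEET17 and SWEET16, fructose carriers of the vacuole membrane, also fell. SWEET17 averaged 1556 ± 109 at 16 h and 4146 ± 500.4 at 4 h (limma, a log2 difference of -1.41 ± 0.12 (SE), adjusted p = 8.64e-05), and SWEET16 97.6 ± 11.4 at 16 h and 346 ± 75.1 at 4 h (limma, a log2 difference of -1.81 ± 0.13 (SE), adjusted p = 4.69e-05; SD, n = 4 each). SWEET11, a sucrose exporter of the phloem parenchyma, had signals of 6004 and 6315 in Atss3 and 6087 and 8258 in WT at 16 h, against 3541 and 3423 in Atss3 and 3349 and 3002 in WT at 4 h. All 16 h arrays were above all 4 h arrays, and SWEET11 rose 1.99-fold (limma, a log2 difference of 0.99 ± 0.14 (SE), adjusted p = 0.0011). SWEET4 averaged 414 ± 56.2 at 16 h and 153 ± 11.5 at 4 h and rose 2.68-fold (limma, a log2 difference of 1.42 ± 0.13 (SE), adjusted p = 0.000139). SWEET14 had a log2 difference of -1.05 with all 16 h signals and 2 of the 4 h signals dim, and with dim signals raised it was not called (limma adjusted p = 0.464). SWEET1 and SWEET2 rose by 0.32 and 0.33. Without any one of the 8 arrays SWEET1 was not called (highest adjusted p = 0.114), and SWEET2 was not called without any array but Atss3 4 h replicate 2 (highest adjusted p = 0.109) or with quantile normalization (adjusted p = 0.0577).

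The tonoplast monosaccharide transporters, which load sugars into the vacuole, showed a rise of one member and a fall of another. TMT1 had signals of 2081 and 1998 in Atss3 and 2306 and 1965 in WT at 16 h, against 521 and 588 in Atss3 and 501 and 654 in WT at 4 h. It rose 3.7-fold (limma, a log2 difference of 1.89 ± 0.13 (SE), adjusted p = 3.93e-05). TMT2 had signals of 469 and 429.8 in Atss3 and 472 and 362 in WT at 16 h, against 1364 and 1118 in Atss3 and 1236 and 938 in WT at 4 h. It fell 2.68-fold (limma, a log2 difference of -1.42 ± 0.11 (SE), adjusted p = 5.95e-05). The groups overlapped for neither, and TMT3, dim on most arrays, was not called (log2 difference -0.15).

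Nuclear genes of the photosystems and their antennae were mostly lower at 16 h. Of 7 measured members, of 45 listed, 6 were called lower and 1 higher (19.9% and 20.7% of all probe sets), with a median of -0.65. LHCB4.2, a minor light-harvesting protein bound to photosystem II, had signals of 7675 and 6125 in Atss3 and 6578 and 6305 in WT at 16 h, against 23170.1 and 25051 in Atss3 and 19281 and 21142 in WT at 4 h. The groups lay far apart, and the fall was 3.32-fold (limma, a log2 difference of -1.73 ± 0.12 (SE), adjusted p = 4.54e-05). PSAN, a subunit of photosystem I, averaged 8809 ± 1172 at 16 h and 17991 ± 1786 at 4 h and fell 2.05-fold (limma, a log2 difference of -1.03 ± 0.13 (SE), adjusted p = 0.000706). PSBY, a subunit of photosystem II, averaged 11282 ± 1836 at 16 h and 22059.9 ± 2297 at 4 h and fell 1.97-fold (limma, a log2 difference of -0.98 ± 0.13 (SE), adjusted p = 0.000691). PSBW, PSAE-1 and LHCB4.1 fell by 0.65, 0.63 and 0.60 on the log2 scale. LHCB4.3 had a log2 difference of 0.48 (limma adjusted p = 0.0482) with overlapping groups, and its call was lost without any array but Atss3 4 h replicate 2 and WT 16 h replicate 2 (highest adjusted p = 0.135) and when arrays were centred on their medians (adjusted p = 0.0548).

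Calls of these genes, which are among the brightest on the array, differed between scalings. The highest signal ran up to 26932 on the 16 h arrays and was 28648 or more on every 4 h array. Among the 100 brightest probe sets 1 was called higher and 45 lower, with a median log2 difference of -0.36. With quantile normalization, which gives every array the same distribution of signals, 8 were called higher and 14 lower, with a median of 0.02. In that setting LHCB4.2, PSAN, PSBY and PSBW were still called lower, with log2 differences of -1.44, -0.76, -0.64 and -0.36. LHCB4.1, PSAE-1 and LHCB4.3 were not, with -0.13, -0.22 and 0.44 (adjusted p = 0.342, 0.171 and 0.0682).

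Calvin cycle and photorespiration genes had small differences, whose calls were lost with quantile normalization. RCA, Rubisco activase, had signals of 19444 and 17199.5 in Atss3 and 17298 and 17032 in WT at 16 h, against 26319 and 25297 in Atss3 and 20778 and 23921 in WT at 4 h. Its log2 difference was -0.44 ± 0.11 (SE; limma adjusted p = 0.0162) as deposited and 0.02 (adjusted p = 0.907) with quantile normalization, and the call was lost without Atss3 4 h replicate 1, Atss3 16 h replicate 2 or WT 4 h replicate 2 (highest adjusted p = 0.0576). SBPASE, sedoheptulose-bisphosphatase, had a log2 difference of -0.34 (adjusted p = 0.0379) as deposited and -0.04 (adjusted p = 0.75) with quantile normalization. Its call was lost without any one array (highest adjusted p = 0.113). PRK, phosphoribulokinase, was not called (log2 difference -0.31, and 0.05 with quantile normalization). HPR, the hydroxypyruvate reductase of photorespiration, had a log2 difference of -0.45 (adjusted p = 0.0115), which was -0.10 (adjusted p = 0.464) with quantile normalization. The other 2 measured photorespiration genes were not called. With arrays centred on their medians RCA, SBPASE and HPR kept their calls (limma adjusted p = 0.0164, 0.0414 and 0.0122).

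Of the chlorophyll synthesis list, PORB, a light-dependent protochlorophyllide reductase, averaged 6313 ± 1181 at 16 h and 10385 ± 1616 at 4 h (SD, n = 4 each; limma, a log2 difference of -0.72 ± 0.16 (SE), adjusted p = 0.00822). PORB stayed lower with quantile normalization (log2 difference -0.57, adjusted p = 0.0164). Its mean was 727 at 1 h and 2954 at 12 h. CHLM, a methyltransferase of the same pathway, had a log2 difference of -0.31 (adjusted p = 0.0395), a call that was lost without any one array (highest adjusted p = 0.101) and with quantile normalization (adjusted p = 0.206). HEME1, uroporphyrinogen decarboxylase, an earlier enzyme of tetrapyrrole synthesis, averaged 928 ± 169 at 16 h and 1777 ± 279 at 4 h and fell 1.92-fold (limma, a log2 difference of -0.94 ± 0.11 (SE), adjusted p = 0.000442). Cpn60beta2, a chaperonin of the chloroplast, averaged 488 ± 175 at 16 h and 2688 ± 580.3 at 4 h and fell 5.69-fold (limma, a log2 difference of -2.51 ± 0.14 (SE), adjusted p = 1.79e-05).

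Genes of the chloroplast's own genome were not called by limma in either direction, 0 of 68 measured, against 40.6% of all probe sets. At an unadjusted p under 0.05 stood 2 of them, against 49.9% of all probe sets. Their median was -0.25 (-0.00302 over all probe sets), and 65 of 68 had a difference below 0. Of these, 32 were lower in all 4 pairs of 1 genotype and run. Genes on the same arrays can move together, so these counts are not of separate measures. With quantile normalization the median was -0.15 and 52 of 68 were below 0. The 4 pairs had medians of -0.29 and -0.46 in Atss3 and -0.12 and -0.15 in WT, so the shift was of unequal size. The median ran from -0.49 to -0.0033 when 1 array was left out, with the value nearest 0 without Atss3 16 h replicate 2. psbD, which encodes the D2 protein of photosystem II, had signals of 2029 and 1476 in Atss3 and 1149 and 5387 in WT at 16 h, against 9092 and 3826 in Atss3 and 2649.9 and 8593 in WT at 4 h. WT run 2 stood above WT run 1 in both groups, the groups overlapped, and the log2 difference was -1.35 ± 0.54 (SE; limma adjusted p = 0.0787). Without Atss3 4 h replicate 1 the difference was -0.80. It was called only without WT 4 h replicate 1 or WT 16 h replicate 2, and its adjusted p ran from 0.0217 to 0.225 when 1 array was left out. Over all probe sets the median SE was 0.14, below that of psbD. psbB and psbT, with log2 differences of -1.10 and -0.73, were also not called (limma adjusted p = 0.165 and 0.282). The lack of calls therefore does not show steady levels.

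Nuclear genes with the symbols OTP, CRR and PPR, most of them for RNA processing in organelles, were lower or not called. CRR41, called lower (log2 difference -1.08), and CRR42, not called (0.32), are in this list by symbol and are not RNA processing genes. Of 12 measured, 6 were called lower and 0 higher (19.9% and 20.7% of all probe sets), with a median of -0.45, which was -0.24 with dim signals raised, and CRR21 and PPR596 kept their calls whichever array was left out. PPR596 averaged 177 ± 17.6 at 16 h and 458 ± 105 at 4 h (limma, a log2 difference of -1.34 ± 0.18 (SE), adjusted p = 0.000934), and CRR21 268 ± 31.8 at 16 h and 408 ± 23.4 at 4 h (limma, a log2 difference of -0.61 ± 0.12 (SE), adjusted p = 0.0047; SD, n = 4 each). Of 10 nuclear RNA polymerase subunits 4 were called lower and 1 higher (19.9% and 20.7% of all probe sets), with a median of -0.31. Whichever array was left out, 3 of these falls and 0 rises kept their calls. NRPA1 and NRPA2, the large subunits of RNA polymerase I, which transcribes ribosomal RNA, fell 2.31-fold and 2.03-fold (limma adjusted p = 0.00218 and 0.00717). NRPC2, a large subunit of RNA polymerase III, had signals of 175 and 131 in Atss3 and 138 and 133 in WT at 16 h, against 419 and 343 in Atss3 and 269 and 263 in WT at 4 h. The groups did not overlap, and it fell 2.22-fold (limma, a log2 difference of -1.15 ± 0.13 (SE), adjusted p = 0.000389).

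The cold-regulated pair COR15A and COR15B fell at 16 h. COR15B, a protectant of chloroplast membranes in the cold, had signals of 716 and 478 in Atss3 and 588 and 489 in WT at 16 h, against 3339 and 2715 in Atss3 and 3559 and 3075 in WT at 4 h. It fell 5.63-fold (limma, a log2 difference of -2.49 ± 0.12 (SE), adjusted p = 9.9e-06). Its relative COR15A had signals of 2130.2 and 1679 in Atss3 and 2906 and 2853 in WT at 16 h, against 6372 and 6519 in Atss3 and 8482 and 6139 in WT at 4 h. No 16 h array reached the lowest 4 h array, and COR15A fell 2.92-fold (limma, a log2 difference of -1.55 ± 0.15 (SE), adjusted p = 0.000164). TIL, a temperature-induced lipocalin, averaged 2872 ± 585 at 16 h and 6619 ± 803 at 4 h and fell 2.33-fold (limma, a log2 difference of -1.22 ± 0.11 (SE), adjusted p = 0.000152). COR47, a dehydrin, was not called (log2 difference 0.17). XERICO, which promotes abscisic acid accumulation, averaged 1829.5 ± 202 at 16 h and 1344 ± 219 at 4 h (limma log2 difference 0.45, adjusted p = 0.0137), and without WT 4 h replicate 1 its adjusted p was 0.0534. Of the 4 measured members of the cold and abscisic acid list 1 was called higher and 2 lower (20.7% and 19.9% of all probe sets), with a median of -0.69.

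Expansins, which loosen the wall, included rises and falls. Of 10 expansins kept of 15, 4 were called higher and 4 lower (20.7% and 19.9% of all probe sets). Of these calls 3 rises and 4 falls were kept whichever array was left out. EXPB1 had signals of 45.1 and 35.8 in Atss3 and 79.0 and 46.3 in WT at 16 h, against 486 and 362 in Atss3 and 556 and 336 in WT at 4 h. It was dim on all 16 h arrays and at least 4.57-fold lower there (limma adjusted p = 1.1e-05). EXPA8 averaged 712 ± 78.0 at 16 h and 2540.3 ± 343 at 4 h and fell 3.56-fold (limma, a log2 difference of -1.83 ± 0.14 (SE), adjusted p = 5.91e-05), and EXPB3 fell 2.86-fold (limma adjusted p = 4.99e-05). EXLB1, an expansin-like gene, averaged 627 ± 152 at 16 h and 171 ± 32.4 at 4 h and rose 3.63-fold (limma, a log2 difference of 1.86 ± 0.14 (SE), adjusted p = 6.28e-05), like EXPA16 above.

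XTH enzymes cut and rejoin xyloglucan in the wall, and 2 of 5 kept, of 9 on the array, were called higher and 1 lower (20.7% and 19.9% of all probe sets). XTH32 had signals of 793 and 583 in Atss3 and 858 and 717 in WT at 16 h, against 4256 and 2743 in Atss3 and 3657 and 3062 in WT at 4 h. It fell 4.63-fold (limma, a log2 difference of -2.21 ± 0.12 (SE), adjusted p = 1.68e-05). XTH33 and XTH18 were dim on all 4 h arrays and on 1 of the 16 h arrays, and with dim signals raised they were not called (limma adjusted p = 0.11 and 0.0945). EXGT-A3, another enzyme of this kind, averaged 5403 ± 795 at 16 h and 2327 ± 378 at 4 h and rose 2.33-fold (limma, a log2 difference of 1.22 ± 0.17 (SE), adjusted p = 0.000922). GH9C2, of the glycosyl hydrolase family of endoglucanases, averaged 976 ± 367 at 16 h and 3015 ± 662 at 4 h and fell 3.18-fold (limma, a log2 difference of -1.67 ± 0.20 (SE), adjusted p = 0.000465).

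THE1, which encodes THESEUS1, a receptor kinase that senses the state of the wall and restrains growth, had signals of 1078 and 989.7 in Atss3 and 1164 and 949.7 in WT at 16 h, against 228 and 309.7 in Atss3 and 258 and 246 in WT at 4 h. Each group was tight, and THE1 rose 4.03-fold (limma, a log2 difference of 2.01 ± 0.14 (SE), adjusted p = 4.24e-05). The pectin methylesterase genes ATPMEPCRB and PMEPCRF rose 3.68-fold and 2.15-fold (limma adjusted p = 0.000164 and 0.000451). RALFL33, of a family of small secreted peptides that bind receptor kinases, averaged 3149.6 ± 497 at 16 h and 1076 ± 93.5 at 4 h and rose 2.91-fold (limma, a log2 difference of 1.54 ± 0.14 (SE), adjusted p = 0.000137).

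Of 15 trichome birefringence-like genes, a family that acetylates wall polysaccharides, 6 were called higher and 3 lower (20.7% and 19.9% of all probe sets). Of these calls 3 rises and 3 falls were kept whichever array was left out. TBL26 had signals of 1346 and 932 in Atss3 and 2237 and 979 in WT at 16 h, against 8968 and 7704 in Atss3 and 5661 and 4013 in WT at 4 h. It fell 4.89-fold (limma, a log2 difference of -2.29 ± 0.27 (SE), adjusted p = 0.000439). TBL45 and TBL37 rose 3.33-fold and 2.67-fold (limma adjusted p = 0.000193 and 0.000157). Within the cellulose synthase family 1 of 6 members was called lower and 1 higher, against 19.9% and 20.7% of all probe sets. The rise, that of CSLA03, lost its call in 6 of the 8 fits that left out 1 array (limma, highest adjusted p = 0.101). CSLA01, a mannan synthase, averaged 233 ± 141 at 16 h and 1066 ± 433 at 4 h and fell 5.05-fold (limma, a log2 difference of -2.34 ± 0.30 (SE), adjusted p = 0.000658; SD, n = 4 each). Of 7 tubulins 3 were called higher and 0 lower (20.7% and 19.9% of all probe sets). TUB9 averaged 3016 ± 587 at 16 h and 1754 ± 370.2 at 4 h (limma, a log2 difference of 0.78 ± 0.13 (SE), adjusted p = 0.00194), TUB7 and TUA1 rose by 0.72 and 0.52, and TUA6 was not called (log2 difference 0.03).

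Of 13 P450 genes kept of 23, 4 were called lower and 1 higher, against 19.9% and 20.7% of all probe sets. Whichever array was left out, 3 of the falls and the 1 rise kept their calls. CYP71B26, a cytochrome P450, had signals of 159 and 194 in Atss3 and 85.5 and 214 in WT at 16 h, against 3151 and 2638 in Atss3 and 2739 and 3206 in WT at 4 h. WT 16 h replicate 1 was dim and all 4 h arrays were bright, and CYP71B26 fell 19.0-fold (limma, a log2 difference of -4.24 ± 0.24 (SE), adjusted p = 1.76e-05), which was 18.7-fold with dim signals raised. CYP78A9, of a family that acts on organ size, was lower by at least 4.53-fold with 3 of 4 signals at 16 h dim, and CYP71B35 fell 2.38-fold (limma adjusted p = 0.000565). The other 8 kept P450 genes were not called.

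Of 26 UGT genes kept of 47, which attach sugars to small molecules, 8 were called higher and 10 lower (20.7% and 19.9% of all probe sets). Whichever array was left out, 5 of the rises and 10 falls kept their calls. UGT71B1 had signals of 1348 and 1450.0 in Atss3 and 1462 and 1515 in WT at 16 h, against 360.0 and 464 in Atss3 and 614 and 445 in WT at 4 h. It rose 3.12-fold (limma, a log2 difference of 1.64 ± 0.15 (SE), adjusted p = 0.000151). UGT76C2, which glucosylates cytokinins, averaged 611 ± 30.1 at 16 h and 235 ± 53.3 at 4 h and rose 2.66-fold (limma, a log2 difference of 1.41 ± 0.16 (SE), adjusted p = 0.000374). UGT72B3 and UGT84A3 each fell 2.06-fold (limma adjusted p = 0.000441 and 0.00205). UGT78D1 and UGT78D2, which glycosylate flavonols, fell by 0.64 and 0.59 on the log2 scale with overlapping groups (limma adjusted p = 0.00302 and 0.00467).

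Of 14 genes on the aliphatic glucosinolate list 2 were measured, BCAT4 and AT2G31790. Both were called lower (19.9% of all probe sets), by 0.66 and 0.67 on the log2 scale (limma adjusted p = 0.0145 and 0.00836). The arrays of the groups did not overlap for 1 of the 2 genes. Glucosinolates are defence compounds of the cabbage family, and BCAT4 starts the chain elongation of methionine. Of 7 glutathione transferases kept of 13, 3 were called lower and 1 higher (19.9% and 20.7% of all probe sets). The rise, that of GSTU18, lost its call in 6 of the 8 fits that left out 1 array (limma, highest adjusted p = 0.0789). Of the falls 2 kept their calls in all 8. GSTU26 and GSTU23 were dim on all 16 h arrays and at least 1.76-fold and 1.27-fold lower there.

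cICDH, the cytosolic isocitrate dehydrogenase that makes NADPH, had signals of 9875 and 9188 in Atss3 and 10942 and 11297 in WT at 16 h, against 3565 and 4823 in Atss3 and 4293 and 5364 in WT at 4 h. It rose 2.31-fold (limma, a log2 difference of 1.21 ± 0.12 (SE), adjusted p = 0.000244). AOR, an oxidoreductase of reactive carbonyls in the chloroplast, had signals of 2812 and 2521 in Atss3 and 3128 and 2716 in WT at 16 h, against 9881 and 7729.9 in Atss3 and 9965 and 8079 in WT at 4 h. It fell 3.18-fold (limma, a log2 difference of -1.67 ± 0.10 (SE), adjusted p = 2.61e-05), with no overlap. CCS, the copper chaperone of superoxide dismutase, averaged 901 ± 213 at 16 h and 325 ± 104 at 4 h and rose 2.83-fold (limma adjusted p = 0.000591). VTC4, which acts in ascorbate synthesis, averaged 724 ± 185 at 16 h and 2663 ± 478 at 4 h and fell 3.71-fold (limma, a log2 difference of -1.89 ± 0.16 (SE), adjusted p = 9.04e-05). MSRA5 and MSRB9 rose 2.23-fold and 2.32-fold, while MSRB6 fell as described, and of 5 methionine sulfoxide reductases 3 were called higher and 1 lower (20.7% and 19.9% of all probe sets). ALDH11A3, which makes NADPH from glyceraldehyde phosphate in the cytosol, averaged 3132 ± 264 at 16 h and 6800.1 ± 467 at 4 h and fell 2.17-fold (limma, a log2 difference of -1.12 ± 0.12 (SE), adjusted p = 0.000268). ALDH10A8, a betaine aldehyde dehydrogenase, rose 1.94-fold (limma adjusted p = 0.000303).

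Genes of protein turnover included rises and falls. SCPL49, a serine carboxypeptidase, had signals of 3865 and 4093 in Atss3 and 4653 and 4014 in WT at 16 h, against 1526 and 1545 in Atss3 and 1626 and 1743 in WT at 4 h. The groups were tight and apart, and it rose 2.58-fold (limma, a log2 difference of 1.37 ± 0.11 (SE), adjusted p = 7.57e-05). Of 14 serine carboxypeptidase-like genes 6 were called higher and 2 lower (20.7% and 19.9% of all probe sets), with a median of 0.18, and 4 of the rises kept their calls whichever array was left out. ASPGA1, an asparaginase, which frees the nitrogen of asparagine, averaged 1353 ± 162 at 16 h and 559.6 ± 67.1 at 4 h and rose 2.42-fold (limma, a log2 difference of 1.27 ± 0.13 (SE), adjusted p = 0.00023). UBC28, a ubiquitin-conjugating enzyme, averaged 10548 ± 956 at 16 h and 5777 ± 1253 at 4 h and rose 1.85-fold (limma, a log2 difference of 0.89 ± 0.14 (SE), adjusted p = 0.00174). Of 11 ubiquitin-conjugating enzymes 5 were called higher and 2 lower (20.7% and 19.9% of all probe sets). Of these calls 5 rises and 1 fall were kept whichever array was left out. BETA-VPE, a vacuolar processing enzyme, was dim on all 16 h arrays and at least 4.93-fold lower there (limma adjusted p = 8.6e-06). The histone list, drawn up by symbol, kept 6 genes, of which HISN5B is not a histone gene and was not called. Of the 6 genes 3 were called higher and 0 lower (20.7% and 19.9% of all probe sets). Among the 3 were HTB11 and HTB2, which encode histone H2B, with rises of 1.73-fold and 1.7-fold (limma adjusted p = 0.00395 and 0.00785). The call of HIS1-3, the other one, was lost without any array but Atss3 16 h replicate 2 and WT 16 h replicate 1 (highest adjusted p = 0.129) and with quantile normalization (adjusted p = 0.0598). HON4, a linker histone-like gene, averaged 1303 ± 99.8 at 16 h and 539.6 ± 42.7 at 4 h and rose 2.41-fold (limma, a log2 difference of 1.27 ± 0.11 (SE), adjusted p = 9.63e-05).

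Of regulators, 4 of 5 WRKY transcription factors were called higher and 0 lower (20.7% and 19.9% of all probe sets), with a median of 0.95. WRKY6, a regulator of senescence and phosphate response, had signals of 136 and 365 in Atss3 and 186 and 229.8 in WT at 16 h, against 14.1 and 16.5 in Atss3 and 28.4 and 46.3 in WT at 4 h. It was dim on all 4 h arrays and at least 2.25-fold higher at 16 h (limma adjusted p = 0.000184). WRKY47 averaged 284 ± 71.5 at 16 h and 151 ± 43.8 at 4 h and rose 1.89-fold (limma, a log2 difference of 0.92 ± 0.10 (SE), adjusted p = 0.000359). WRKY22, a factor of defence signalling, rose by 0.95 on the log2 scale (limma adjusted p = 0.0111). WRKY53 rose by 1.01 with overlapping groups (limma adjusted p = 0.0398), and its call was lost without any array but Atss3 16 h replicate 2 and Atss3 4 h replicate 2 (highest adjusted p = 0.117). GT2 and GT-1, trihelix factors that bind light-responsive promoters, rose 2.29-fold and 1.79-fold (limma adjusted p = 0.00075 and 0.0016). BZIP61 was dim at 4 h and at least 2.74-fold higher at 16 h.

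AFR, an F-box protein of far-red light signalling, averaged 230.1 ± 27.5 at 16 h and 913 ± 342 at 4 h and fell 3.74-fold (limma, a log2 difference of -1.90 ± 0.19 (SE), adjusted p = 0.000215). Of 5 glutamate receptor-like channels 3 were called lower and 0 higher (19.9% and 20.7% of all probe sets). GLR3.3, which acts in wound-induced electrical and calcium signals, had signals of 218 and 237 in Atss3 and 222 and 194 in WT at 16 h, against 574 and 517 in Atss3 and 565 and 519.6 in WT at 4 h. It fell 2.5-fold (limma, a log2 difference of -1.32 ± 0.11 (SE), adjusted p = 9.26e-05), GLR3.5 fell 2.97-fold and GLR2.7 1.55-fold. Of 6 calmodulin-like genes 2 were called higher (20.7% of all probe sets), CML42 at 2.36-fold and CML30 at 3.71-fold. Of 5 cysteine-rich defensin-like genes, small secreted peptides of defence, 4 were called higher and 0 lower (20.7% and 19.9% of all probe sets). Whichever array was left out, 3 of these rises kept their calls. LCR69 averaged 2387 ± 88.1 at 16 h and 777 ± 357 at 4 h and rose 3.29-fold (limma, a log2 difference of 1.72 ± 0.24 (SE), adjusted p = 0.00111), and LCR68 rose 2.12-fold (limma adjusted p = 0.000757).

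Among the brightest genes changed at least 2-fold, AT5G14120, AT5G44020, AT1G25275 and AT1G78020 stood beside cICDH with rises of 2.88-fold, 2.8-fold, 2.64-fold and 2.13-fold. AT1G73600 and AT1G13930 stood beside LHCB4.2, PSAN and AOR with falls of 6.44-fold and 3.2-fold. AT1G73600 averaged 2169 ± 391 at 16 h and 13875 ± 1823 at 4 h (SD, n = 4 each; limma, a log2 difference of -2.69 ± 0.15 (SE), adjusted p = 1.76e-05). Of 4 alternative NAD(P)H dehydrogenases, enzymes that pass electrons to quinones outside the main respiratory complexes, NDC1 fell and NDB1 rose, by log2 differences of -0.62 and 0.61 (limma adjusted p = 0.00668 and 0.0135). IAA18, an auxin response repressor, had a log2 difference of 1.01 (limma adjusted p = 0.000312), and IAA29 of the same family was not called (0.09). The 2 kept genes of the anthocyanin list, DFR and UF3GT, were not called, with log2 differences of 0.56 and 0.46 (limma adjusted p = 0.0647 and 0.123).

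**Figure D3:**
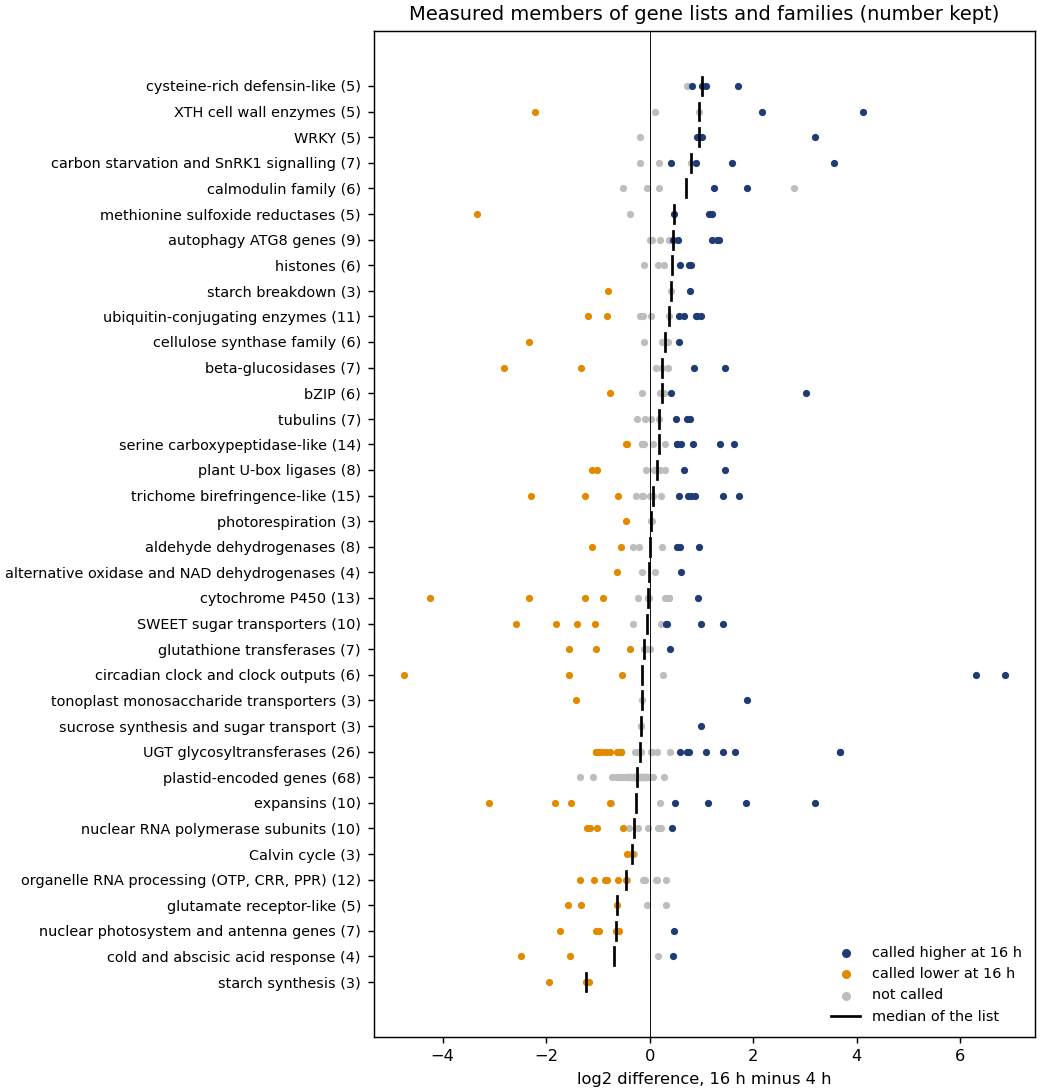
Log2 difference, 16 h minus 4 h (x axis), of each measured member of the gene lists and families with at least 3 kept members, one row per list with the number kept in brackets, coloured by call, with a black bar at the list's median. Starch synthesis and nuclear photosystem genes sit mostly below 0 and carbon starvation genes mostly above it, while SWEET, UGT and expansin genes spread to both sides.

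The 5 harvests of the study place the 2 compared here within the sampled part of the day. Of the 905 probe sets called at least 2-fold higher, 419 had their highest mean at 16 h, 230 at 12 h, 200 at 8.5 h and 56 at 1 h. The lowest mean of these probe sets fell at 4 h in 588, at 1 h in 265, at 8.5 h in 50 and at 12 h in 2. Of the 845 that were called at least 2-fold lower, 464 had their highest mean at 4 h, 282 at 1 h, 97 at 8.5 h and 2 at 12 h. The comparison fixes that 16 h and 4 h cannot change places in these counts. COR27 averaged 26.2 at 1 h and 16.7 at 4 h, stood at 4299 just after lights off, and was 1739 at 12 h and 1319.8 at 16 h. EXO was also highest at 8.5 h, with a mean of 1970.1, and had 487 at 12 h and 936 at 16 h. COR15B averaged 779 at 1 h, 3172 at 4 h, 11294 at 8.5 h, 3676 at 12 h and 568 at 16 h, so its 16 h level was close to that of 1 h. RR16 averaged 527 at 1 h and 90.4 at 8.5 h, and its 16 h mean of 1749 was the highest of the 5. SBE2.2 was highest at 4 h and had means of 2023, 1997 and 1928 at 1, 8.5 and 12 h.

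**Figure D4:**
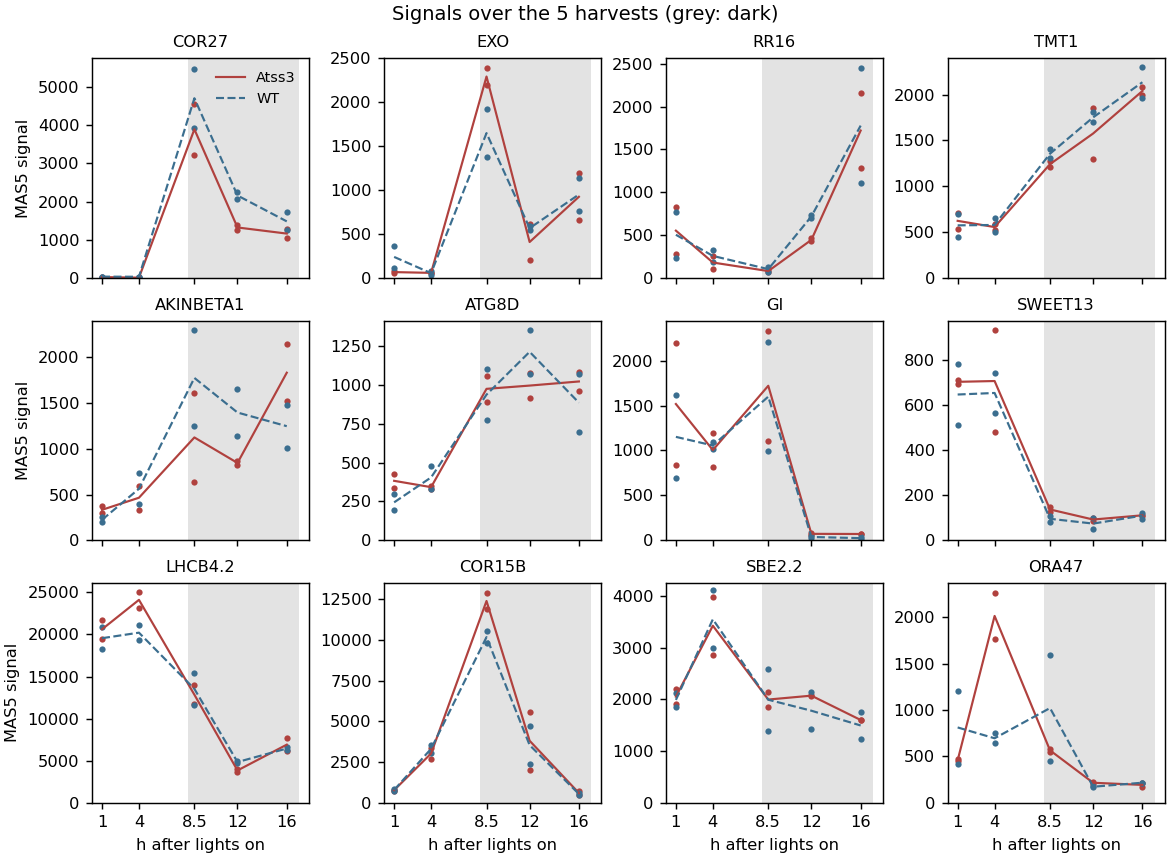
MAS5 signals (y axis) of 12 genes over the 5 harvests, in hours after lights on (x axis), with 1 point per array, lines through the means of 2 arrays for Atss3 (solid) and WT (dashed), and the dark hours in grey. COR27 and COR15B peak at 8.5 h, TMT1 and RR16 at 16 h, and GI is near 0 at 12 h and 16 h.

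The difference between 16 h and 4 h was also set against genotype. By the interaction term of limma 0 of 14646 probe sets differed between Atss3 and WT, and 610 (4.16%) had an unadjusted p under 0.05. Across all probe sets the correlation of the 16 h minus 4 h differences was 0.88 between Atss3 and WT and 0.875 between run 1 and run 2, as a description of arrays that share no sample but share the scaling. All 5947 called probe sets had 1 sign in both genotypes and in both runs, which the call over all 8 arrays in part sets.

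The gene with the smallest interaction p among those with a symbol was ORA47, a transcription factor of jasmonate signalling. Its signals were 173 and 211 in Atss3 and 218 and 214 in WT at 16 h, against 1762 and 2264 in Atss3 and 749 and 640.3 in WT at 4 h. The 16 h arrays were alike in both genotypes, and the 4 h arrays of Atss3 were above those of WT. The log2 difference was -3.39 in Atss3 and -1.68 in WT, and the difference between them, -1.70 ± 0.28 (SE), was not called by limma (unadjusted p = 0.000485, adjusted p = 0.463). AT1G23390 had log2 differences of -0.02 in Atss3 and -1.54 in WT, a difference between genotypes that was also not called (limma adjusted p = 0.463). AT5G66740, AT4G27654 and AT1G06270 completed the 5 smallest, with unadjusted limma p-values of 3.02e-05, 0.000212 and 0.000246.

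QQS, a gene known to have been singled out in this mutant for its effect on leaf starch, had signals of 5824 and 5478 in Atss3 and 303 and 470.5 in WT at 16 h, against 2353 and 3011 in Atss3 and 108 and 278 in WT at 4 h. Atss3 stood above WT at both harvests, so the pooled groups overlapped. Within each genotype both arrays at 16 h exceeded both at 4 h, with log2 differences of 1.09 in Atss3 and 1.12 in WT. Over both genotypes QQS rose 2.15-fold (limma adjusted p = 0.00451), and the difference between genotypes was -0.04 ± 0.45 on the log2 scale (unadjusted p = 0.935).

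**Figure D5:**
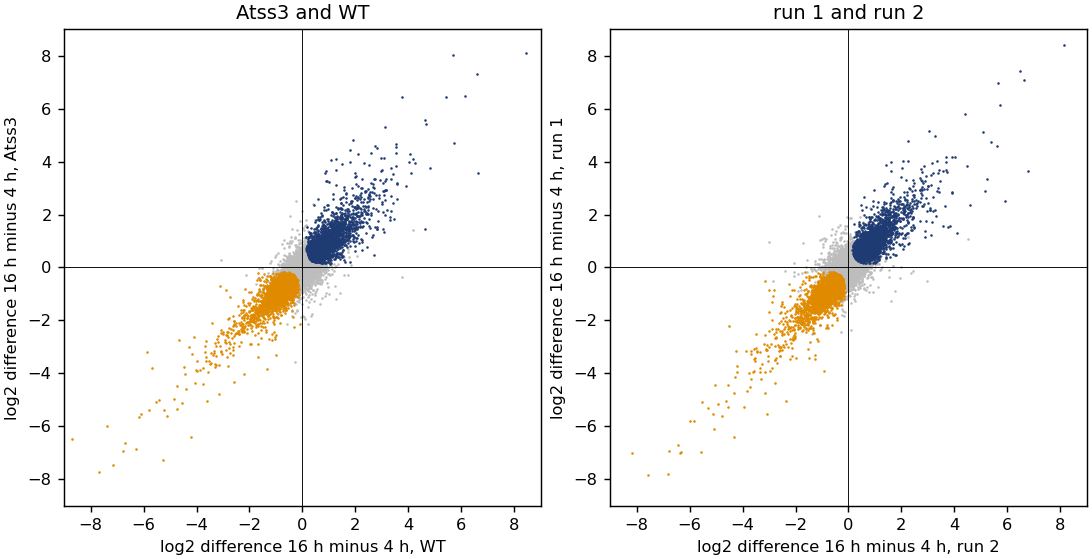
Log2 difference, 16 h minus 4 h, of each kept probe set in Atss3 (y axis) against WT (x axis), left, and in run 1 (y axis) against run 2 (x axis), right, coloured by the call over all 8 arrays. Points follow the diagonal in both panels (correlation 0.88 and 0.875).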

How the data were processed

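The deposited values were 1 signal intensity per probe set and array, made by the authors with MAS5, per the submitters' processing notes, whose MAS5 release was not given in the sources used here, nor were its settings. The mean of each array without its lowest and highest 2% was about 500 (500.04 to 500.05), so the authors had scaled the arrays to each other. Signals under 1 were raised to 1 and log2 was taken. Of 22810 probe sets, 64 are controls and were dropped, and those above their array's 40th percentile on at least 2 of the 8 arrays were kept. GEO's platform annotation, updated through RefSeq (TAIR10.1), gave 13513 probe sets 1 gene, 503 several, and did not list 8730.

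limma 3.58.1 in R 4.3.3 fitted time, genotype and replicate number to the log2 signals, with Benjamini-Hochberg adjustment over all kept probe sets, and was tested on simulated data. Genotype differences were tested by an interaction term. Labels make the replicate number the run of the experiment, and deviations of arrays with the same number correlated at 0.159 to 0.455 in all 6 pairs of groups. The number of arrays, 2 per group, limits the precision.

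The rule for the 102 named genes took the 10 widest rises and falls that were dim on no array, 5 each way among those dim on all arrays of the lower group, 5 each way among the brightest of those changed at least 2-fold, up to 3 members per list, the 5 smallest genotype p-values, and QQS. A further 41 genes and 12 families were chosen after their values were seen. The members and lists were chosen with earlier results of these data known. Alternatives were an offset of 64, raised dim signals, 2 other scalings, 2 other filters, no replicate block, single runs and genotypes, an integrity covariate, all 20 arrays, and each array left out. Calls of list members and of the brightest probe sets under other scalings, and of list members with each array left out, were added after seeing the data. Promoter motifs had been planned and were not analysed here.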

Additional observations from a re-analysis of the deposited data

Results flagged for a closer look

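In each group of 4 arrays the highest and lowest signals of the 143 named genes were examined for a gap wide against the range of the group (Dixon's criterion at the 95% level). Of 286 groups 22 had such an array (7.69%), where chance gives about 1 in 20. Arrays of a group differ in genotype and run, and no cause was tested.

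At 16 h Atss3 replicate 1 was high for AT5G11070 (5266, others 3330 to 3575), RCA (19444, others 17032 to 17298), HTB11 (1065, others 765 to 788), GSTU26 (81.4, others 48.2 to 50.6) and NRPC2 (175, others 131 to 138), and low for ORA47 (173, others 211 to 218). WT replicate 1 was low for AT5G62900 (616, others 971 to 1038). WT replicate 2 was high for SWEET11 (8258, others 6004 to 6315) and XERICO (2131, others 1700 to 1760) and low for NDC1 (426, others 528 to 539).

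At 4 h Atss3 replicate 1 was high for AT1G73600 (16605, others 12865 to 13095), SBPASE (16453, others 14114 to 14275) and SWEET17 (4886, others 3835 to 4012), and low for UGT76C2 (155, others 258 to 266). Atss3 replicate 2 was high for EXLA1 (386, others 215 to 241) and low for GSTU26 (113, others 180 to 194). WT replicate 1 was high for AT1G62510 (2503, others 2045 to 2076) and COR15A (8482, others 6139 to 6519). WT replicate 2 was high for AT2G43620 (266, others 125 to 140), ATG8D (477, others 331 to 352) and ATG8E (866, others 418 to 477), and low for VTC4 (1947, others 2866 to 2933).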

How the results depend on the processing

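The calls over all 8 arrays, 3029 higher and 2918 lower, were fewer with fewer arrays: 1888 and 1861 in run 1 alone, 1426 and 1336 in run 2 alone, 1623 and 1620 in Atss3 alone, and 1659 and 1511 in WT alone. Leaving out 1 array gave 2409 to 2690 higher and 2238 to 2621 lower. Without the replicate block 2567 were called higher and 2515 lower, of which 2564 and 2514 were also called with it. With quantile normalization there were 3027 and 2942, with no filter 2077 and 2066, and with the other settings counts within 1.5 times of the above. No genotype difference was called by limma in any setting that tested for one. Single runs and single genotypes were fitted without that test. Of the 143 named genes, 5 lost their call without the replicate block, 13 with no filter and 23 in run 2 alone. Of the 38 list medians, 14 changed sign in at least 1 setting, among them medians near 0 (SWEET up to 0.033, P450 up to 0.087) and the clock list (0.120 in run 2 and 0.25 with the stricter filter). Other values that changed sign included the Calvin cycle median (0.017), RCA (0.017) and PRK (0.05) with quantile normalization, the UGT median in Atss3 alone (0.0016), AT4G27654 in WT alone (0.028), the XTH median with the stricter filter (-2.21, where 1 member was left), and the expansin median with dim signals raised (0.0067), in run 1 alone (0.115), in WT alone (0.021) and without Atss3 16 h replicate 2 (0.038, where the fits that left out 1 array ran from -0.36 to 0.038). The cause of these changes was not tested. Signals near background limit what can be said of dim probe sets: 178 rises and 152 falls of at least 2-fold were dim on all arrays of the lower group, so their folds are bounds.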
